A study of Mus musculus with 16 samples.

Results

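Autophagy is the route by which a cell encloses part of its own cytoplasm in a double membrane, the autophagosome, and delivers it to the lysosome. A kinase complex built around ULK1 or ULK2 starts the process, a class III PI3-kinase complex with Beclin 1 marks the forming membrane, ATG2 and ATG9A move lipid into it, and a pair of ubiquitin-like conjugation systems attaches the ATG8 proteins (the LC3 and GABARAP families) to that membrane, where cargo receptors such as p62 (Sqstm1) bind them. In osteoclasts the lipidation proteins ATG5 and ATG7 are also known for directing lysosomes to the resorbing membrane, TFEB is known to raise lysosomal genes after RANKL, and p62 is a scaffold of RANKL signalling that is mutated in Paget disease of bone.

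The transcripts of 37 genes of this machinery were followed in mouse bone marrow-derived monocytes (BMDMs), the macrophage-lineage precursors that become osteoclasts. The genes were chosen by name as a list of core autophagy components, with earlier results of these data known. Each of the 37 had a row among the 21898 genes listed in the count table, of which 15697 had a count in some library and 11559 passed the filter on low counts and were tested. All 37 passed. RNA-seq libraries came from BMDMs of C57BL/6 mice in 4 groups of 4 libraries. All groups received M-CSF, the cytokine that keeps these cells alive, at 50 ng/ml. The M + vector and M + iBRD9 groups received nothing more than vehicle or iBRD9, and the MR + vector and MR + iBRD9 groups also received RANKL, the cytokine that starts osteoclast differentiation, at 100 ng/ml. iBRD9 blocks the acetyl-lysine pocket (bromodomain) of BRD9, which belongs to the non-canonical form of the chromatin remodeller BAF. By the methods of the study the inhibitor was given for a day before collection. The labels give no targeted allele for these cells, and the cell culture methods of the study name wild-type mice as the source.

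Libraries held 15372775 to 18987926 counts, and the 37 genes took 0.292% to 0.337% of them. M + iBRD9 replicate 4 stood apart from its group. Its counts differed from those of the other 3 libraries by a chi-square per degree of freedom of 7.37 to 11.3, against 4.7 to 6.25 among those 3 and 2.81 to 5.49 within the other groups. Called results of the 37 genes that use it are therefore also given without it. For the other gene lists, whether calls hold without it was not tested. In M + vector, replicate 4 differed from the other libraries by 5.06 to 5.49, and those by 3.11 to 3.33 among themselves. Calls of the 37 genes lost without M + vector replicate 4 are named where they occur. The replicates are numbered 1 to 4 in each group, and whether they were separate cultures or animals is not given, so each p-value rests on the spread among these libraries, which may be technical. Macrophage markers (5 genes: Csf1r, Adgre1, Cd68, Itgam and Mertk) summed to 4480 to 4650 CPM (counts scaled by library size) in M + vector, 4770 to 5120 in M + iBRD9, 3750 to 3830 in MR + vector and 3570 to 3660 in MR + iBRD9. Their sum was thus lowest in the groups with RANKL. Of the 5 mature osteoclast markers, Calcr was at 0 in every library. Ocstamp was at 0 in every M + vector library and had counts in each of the other groups. The sum of the 5 was 90.6 to 101 CPM without RANKL and 58.2 to 67.7 CPM with it. The sum was thus not higher in the RANKL groups, which does not hold for each marker alone. Neutrophil markers (9 genes) summed to 77.3 to 104 CPM in the first 3 groups and to 53.9 to 70.6 in MR + iBRD9. T and NK cell markers stayed at or below 0.178 CPM, B cell markers at or below 3.84 CPM, and stromal markers between 9.25 and 20.3 CPM. In bulk RNA, fewer cells of a type and less RNA per cell cannot be told apart, and the part of these shifts in the results below was not tested.

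Upstream sequence is shown for Ulk1 and Sqstm1, the genes on which the inhibitor results turn, and for Atg3. Among the genes here with a window, only Atg3 held TCACGTGA, the longer form of the motif that TFEB and TFE3 are known to bind. The sequences are RefSeq promoter windows (250 bases before to 50 after the start, build GRCm38.p6), reduced to the 150 bases before the start and then to those outside the gene as the deposited table places it, read 5′ to 3′ on the gene's strand, and placed on GRCm39 by exact match. Capitals mark CACGTG, the E-box core, which reads the same on both strands.
Ulk1: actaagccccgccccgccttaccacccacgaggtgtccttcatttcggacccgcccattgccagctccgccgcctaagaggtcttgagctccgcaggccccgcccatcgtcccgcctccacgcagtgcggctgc
Sqstm1: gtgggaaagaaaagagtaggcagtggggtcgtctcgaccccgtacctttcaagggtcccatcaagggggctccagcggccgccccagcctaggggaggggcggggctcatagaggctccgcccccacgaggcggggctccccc
Atg3: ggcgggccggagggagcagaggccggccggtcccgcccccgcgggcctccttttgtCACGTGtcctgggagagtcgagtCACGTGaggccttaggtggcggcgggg
The Ulk1 stretch is chr5:110957964-110958097 on the minus strand, the Sqstm1 stretch is chr11:50101655-50101797 on the minus strand and the Atg3 stretch is chr16:44979042-44979147 on the plus strand. Of the 37 genes, 31 had a window, and Rb1cc1, Pik3c3, Atg16l1, Becn1, Map1lc3a and Atg12 are named only. The 31 had 37 windows in total, so some had several, and all were searched. CACGTG was found in the windows of 4 of the 31 (12.9%) and of 2187 of 27025 genes with a window (8.09%). The 4 were Atg3, Atg5, Atg7 and Atg14. In Atg3, the E-box that begins 71 bases before the RefSeq start also fits TCACGTGA, the longer form bound by the MiT/TFE factors, which 1.12% of genes with a window held. That start lies 44 bases inside the gene as the deposited table gives it, so the printed stretch ends 44 bases before it. Only a single window per gene was placed, which need not be the one with the E-box where a gene had several. The Atg7 window placed stands 27999 bases inside the gene as the deposited table gives it, at a later RefSeq start. The Atg14 window placed stands 2215 bases inside. Neither Ulk1 nor Sqstm1 held CACGTG in any window searched, which says only that these letters are not in those stretches.

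Levels per gene length are given as FPKM, the deposited values that the authors scaled by gene length and library total, as mean ± SD over the 4 M + vector libraries. A pair of genes stood far above the others. Sqstm1 was at 216 ± 2.65 and Gabarap, an ATG8 protein, at 201 ± 3.37. The other ATG8 genes were lower, with Gabarapl1 at 35.4 ± 1.58, Map1lc3b (LC3B) at 20.2 ± 0.494, Gabarapl2 at 20.0 ± 0.53 and Map1lc3a (LC3A) at 7.58 ± 2.01. Gabarap alone thus made up 70.7% ± 0.907 of the summed ATG8 FPKM in M + vector and 74.6% ± 0.511 in MR + vector (SD, n = 4). Shares and rankings between genes depend on the deposited gene lengths, 1844 bases for Gabarap and 7517 for Map1lc3b. Whether these match the transcripts expressed was not tested. In CPM, which uses no length, Gabarap was at 375 ± 6.13 and Map1lc3b at 154 ± 3.85 in M + vector. Sqstm1 made up 88.7% ± 0.223 of the summed FPKM of the cargo receptors Sqstm1, Nbr1 and Optn in M + vector.

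**Figure D1:**
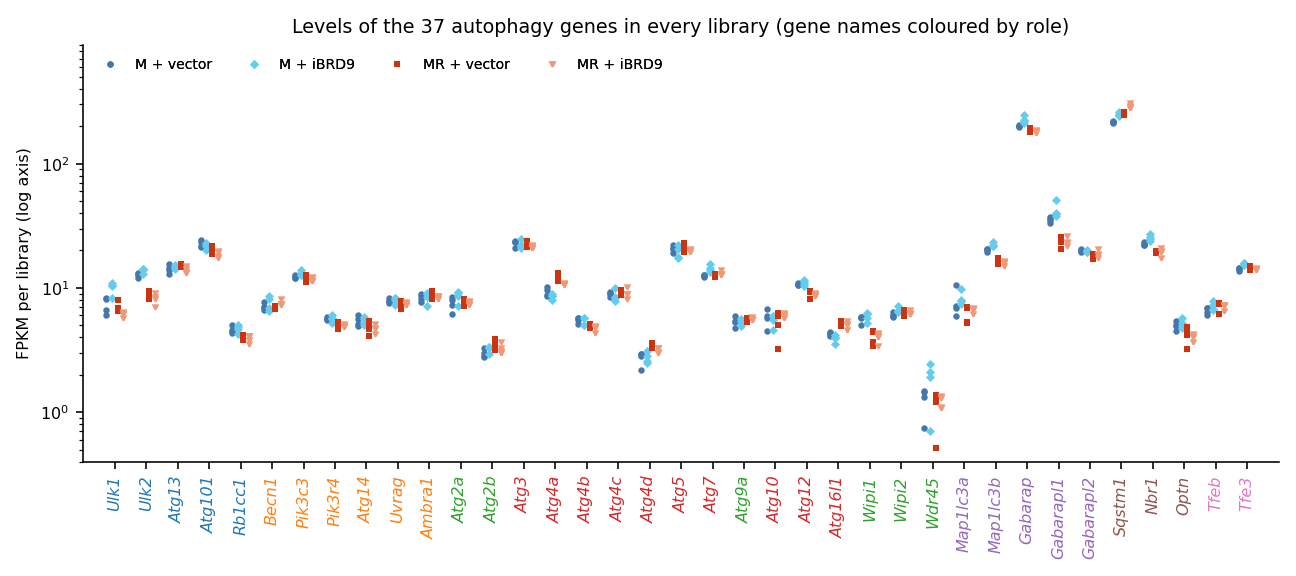
FPKM of each of the 37 genes (log axis) in each of the 16 libraries, marked by group, with gene names coloured by role. Sqstm1 and Gabarap lie between 175.6 and 305 FPKM in every library, and Wdr45 between 0.51 and 2.46.

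The initiation complex was expressed at moderate levels in M + vector. Atg101, a subunit that stabilises ATG13, was at 22.6 ± 1.47 FPKM, Atg13, its partner, at 14.2 ± 1.02, Ulk2 at 12.7 ± 0.475, Ulk1 at 7.30 ± 1.12 and Rb1cc1 (FIP200, the scaffold) at 4.60 ± 0.303. Of the class III PI3-kinase genes, Pik3c3 (VPS34, the catalytic subunit) was at 12.3 ± 0.367, Uvrag at 7.87 ± 0.30, the regulator Ambra1 at 8.34 ± 0.547, Becn1 at 7.08 ± 0.454, Pik3r4 (VPS15) at 5.65 ± 0.162 and Atg14, which directs the complex to autophagosomes, at 5.43 ± 0.496. Uvrag takes the place of Atg14 in the endosomal form of that complex.

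Among the conjugation genes, Atg3 (the E2-like enzyme for ATG8 proteins) was at 23 ± 1.28 FPKM, Atg5 at 20.7 ± 1.19, Atg7 (the E1-like enzyme) at 12.5 ± 0.225, Atg12 at 10.7 ± 0.199, Atg10 (the E2-like enzyme for ATG12) at 5.74 ± 0.923 and Atg16l1, which positions the ATG12-ATG5 conjugate, at 4.27 ± 0.144. The ATG4 proteases, which trim ATG8 proteins and release them from membrane, were at 9.29 ± 0.773 for Atg4a, 8.91 ± 0.375 for Atg4c, 5.51 ± 0.293 for Atg4b and 2.73 ± 0.363 for Atg4d. Lipid transfer and membrane genes were at 7.47 ± 1.01 for Atg2a, 6.04 ± 0.28 for Wipi2, 5.62 ± 0.375 for Wipi1, 5.35 ± 0.482 for the scramblase Atg9a, 2.98 ± 0.238 for Atg2b and 1.25 ± 0.341 for Wdr45 (WIPI4). Nbr1 was at 22.6 ± 0.572, Optn at 4.96 ± 0.379, Tfe3 at 14.1 ± 0.402 and Tfeb at 6.58 ± 0.42.

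The comparison of MR + vector with M + vector asks what RANKL does to these genes without the inhibitor. RANKL lowered more of them than it raised. Of the 37, 13 were called lower (35.1%) and 5 higher (13.5%), where a call is an adjusted p below 0.05 over all tested genes, and 19 were not called. Over all 11559 genes tested, 20.6% were called lower and 20.1% higher. The median log2 change was -0.08 over the 37 and -0.0013 over all genes tested. The larger called falls were those of Gabarapl1, Ulk2, Wipi1 and Map1lc3b, and the rises lay in the ATG4 proteases Atg4a and Atg4d, in Atg16l1, Atg2b and Sqstm1.

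All 5 ATG8 genes had estimates below 0 under RANKL, and 4 of them were called (80%, against 20.6% of all genes called lower). Gabarapl1, a close relative of Gabarap, read 75.5, 71.7, 67.7 and 73.3 CPM in M + vector (replicates 1 to 4, the order used throughout) and 47.1, 52, 47.7 and 41.2 in MR + vector. Every RANKL library was below every library without it, a change of -0.62 ± 0.08 (adjusted p = 3.8e-08) on the log2 scale, here and below as estimate ± SE. Map1lc3b, the gene of the most used autophagosome marker, read 157, 155, 148 and 155 CPM in M + vector and 118, 131, 122 and 115 in MR + vector. These groups were also apart, with a change of -0.34 ± 0.05 (adjusted p = 2.5e-07). Gabarapl2 changed by -0.17 ± 0.06 (adjusted p = 0.019) and Gabarap by -0.13 ± 0.04 (adjusted p = 0.02), both small. The Gabarapl2 call was lost without M + vector replicate 3 or MR + vector replicate 3 (adjusted p up to 0.0794), and the Gabarap call without M + vector replicate 3 or MR + vector replicate 4 (up to 0.0928). Map1lc3a, the least abundant, was not called, at -0.33 ± 0.15 (adjusted p = 0.075), but was without M + vector replicate 4 (adjusted p = 0.0234) or MR + vector replicate 3 (0.0462), and with no filter.

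In the initiation complex, 3 of 5 genes were called lower (60%), against 20.6% of all genes. Ulk2 read 76.7, 79.9, 72.9 and 77.9 CPM in M + vector and 53.8, 55.8, 51.3 and 47.9 in MR + vector. The groups did not overlap, and the change was -0.56 ± 0.06 (adjusted p = 5.3e-09). Its paralogue Ulk1 read 53.8, 54.2, 43.5 and 40.0 CPM without RANKL and 42.7, 51.7, 41.9 and 44.5 with it, in overlapping ranges, and was not called, at -0.08 ± 0.09 (adjusted p = 0.47), with a 95% interval of -0.27 to 0.10. The share of Ulk1 in the summed FPKM of both kinases was 36.3% ± 3.24 in M + vector and 44.3% ± 2.04 in MR + vector. Rb1cc1 changed by -0.23 ± 0.06 (adjusted p = 0.0022) and Atg101 by -0.22 ± 0.07 (adjusted p = 0.013), the latter lost without M + vector replicate 2 (adjusted p = 0.0622). Atg13 was not called, at 0.06.

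**Figure D2:**
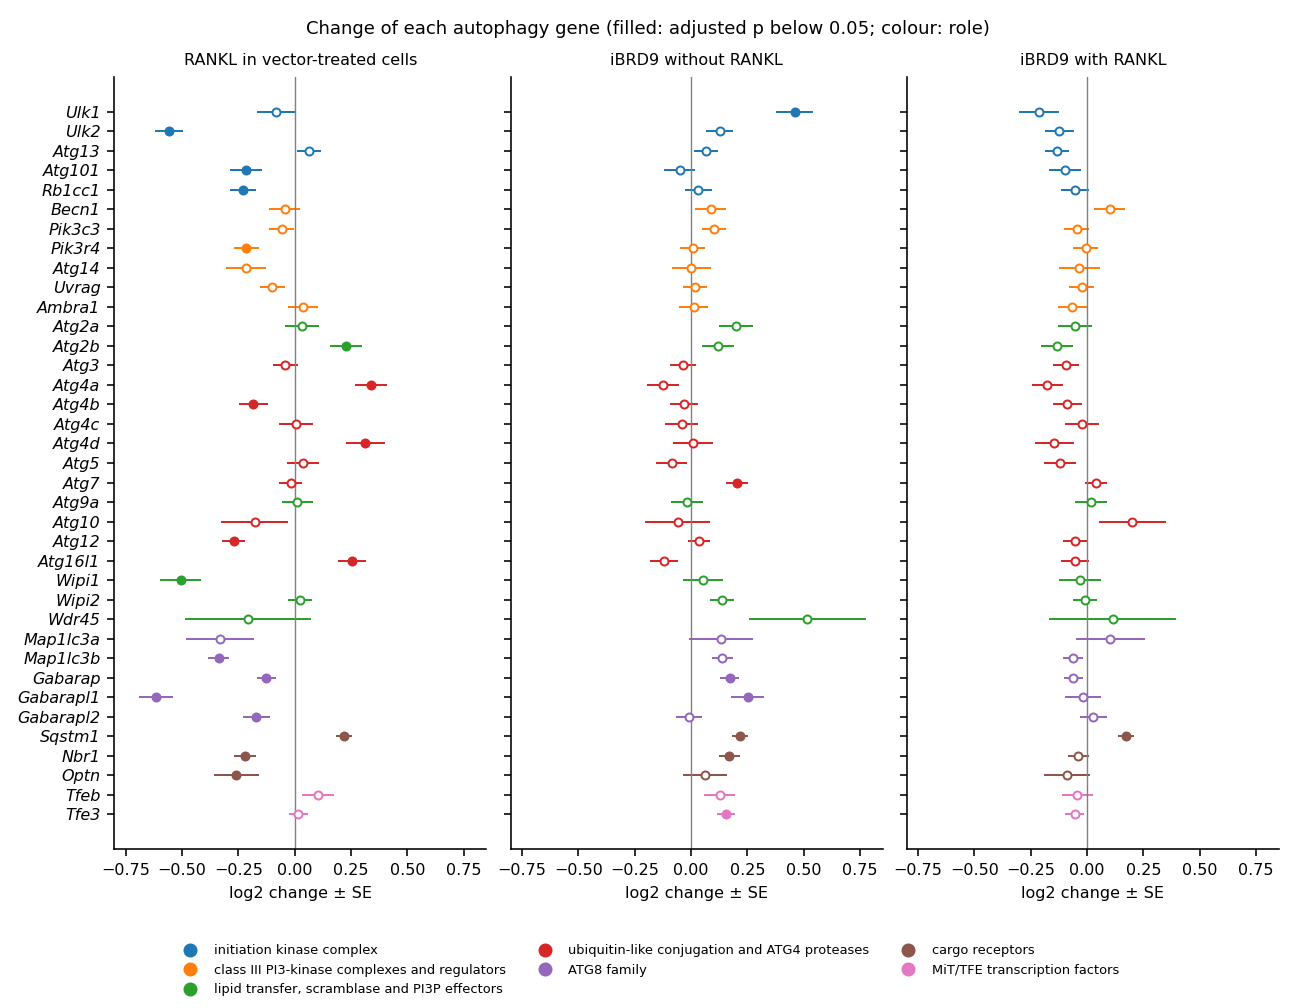
Log2 change ± SE of each of the 37 genes in 3 comparisons, coloured by role, with filled points for adjusted p below 0.05. RANKL gives filled points on both sides of 0 (13 lower, 5 higher), iBRD9 without RANKL only on the right (7), and iBRD9 with RANKL 1, Sqstm1.

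Of the 6 class III PI3-kinase genes, 1 was called under RANKL, lower (16.7%), near the 20.6% of all genes called lower. This was Pik3r4, at -0.21 ± 0.06 (adjusted p = 0.0023). Becn1 read 54.8, 50.1, 46.9 and 50.5 CPM in M + vector and 49.8, 47.9, 50.6 and 47.8 in MR + vector, in overlapping ranges, at -0.04 ± 0.07 (adjusted p = 0.65). Atg14, Uvrag, Pik3c3 and Ambra1 were at -0.21, -0.10, -0.06 and 0.04, none of them called, Atg14 with an adjusted p of 0.051. Atg14 was called without M + vector replicate 3, M + iBRD9 replicate 1 or MR + vector replicate 2 (adjusted p 0.0174 to 0.0495), and also with the replicate block, with only these 2 groups in the fit and with no filter.

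The conjugation genes and ATG4 proteases were split. Atg4a read 26.6, 26, 29.2 and 31.3 CPM in M + vector and 33.8, 35.1, 39.8 and 34.5 in MR + vector, with the groups apart and a change of 0.34 ± 0.07 (adjusted p = 0.00019). Atg4d rose by 0.31 ± 0.09 (adjusted p = 0.0043) and Atg16l1 by 0.25 ± 0.06 (adjusted p = 0.0013). Atg12, the ubiquitin-like protein that is joined to ATG5, read 84.9, 84.2, 82.3 and 82.1 CPM in M + vector and 71.3, 72.7, 62.2 and 70.5 in MR + vector. Its groups were apart too, and it changed by -0.27 ± 0.05 (adjusted p = 5.4e-05). Atg4b changed by -0.18 ± 0.06 (adjusted p = 0.021), a call lost without M + vector replicate 2 or 4 or MR + vector replicate 3 (adjusted p up to 0.0657). Atg5 read 45.6, 52.4, 48.8 and 49.9 CPM without RANKL and 46, 53.8, 53.1 and 48.9 with it, and Atg7 88, 88.6, 89.6 and 86.5 and 88.1, 86.5, 88.9 and 84.8. Both overlapped and neither was called, at 0.04 and -0.02. Atg3, Atg4c and Atg10 were not called, at -0.04, 0.006 and -0.18.

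Of the membrane genes, Wipi1, a PI3P-binding protein, fell and Atg2b rose. Wipi1 read 26.1, 25.7, 22.5 and 25.8 CPM in M + vector and 15.1, 16.3, 19.4 and 19.5 in MR + vector, in ranges that did not meet, at -0.51 ± 0.09 (adjusted p = 2.9e-05). Atg2b changed by 0.23 ± 0.07 (adjusted p = 0.0095), with overlapping groups, and lost its call without MR + vector replicate 3 (adjusted p = 0.0526). Atg2a, Atg9a, Wipi2 and Wdr45 were not called, at 0.03, 0.01, 0.02 and -0.21.

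The 3 cargo receptors went in opposite directions. Sqstm1 read 742, 736, 720.5 and 733 CPM in M + vector and 858, 869, 869.7 and 815 in MR + vector. All 4 RANKL libraries were higher, with a change of 0.22 ± 0.04 (adjusted p = 5.7e-06). Nbr1, which shares the domain plan of p62, read 155, 162, 153 and 158 CPM in M + vector and 131, 136, 137 and 135 in MR + vector, all 4 lower, at -0.22 ± 0.05 (adjusted p = 0.0003). Optn changed by -0.26 ± 0.10 (adjusted p = 0.038), with overlapping groups, and lost its call without M + vector replicate 1, 2 or 3 or MR + vector replicate 1 or 2 (adjusted p up to 0.219). Without MR + vector replicate 1 its change was -0.15. The transcription factors were not called. Tfeb read 39.8, 36.8, 39.3 and 34.8 CPM in M + vector and 35.1, 41.7, 42.7 and 42.2 in MR + vector, at 0.10 ± 0.07 (adjusted p = 0.26). Tfe3 read 134, 133, 135 and 128 and 135, 129, 135 and 136, at 0.02 ± 0.04 (adjusted p = 0.79). Both ranges overlapped.

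**Figure D3:**
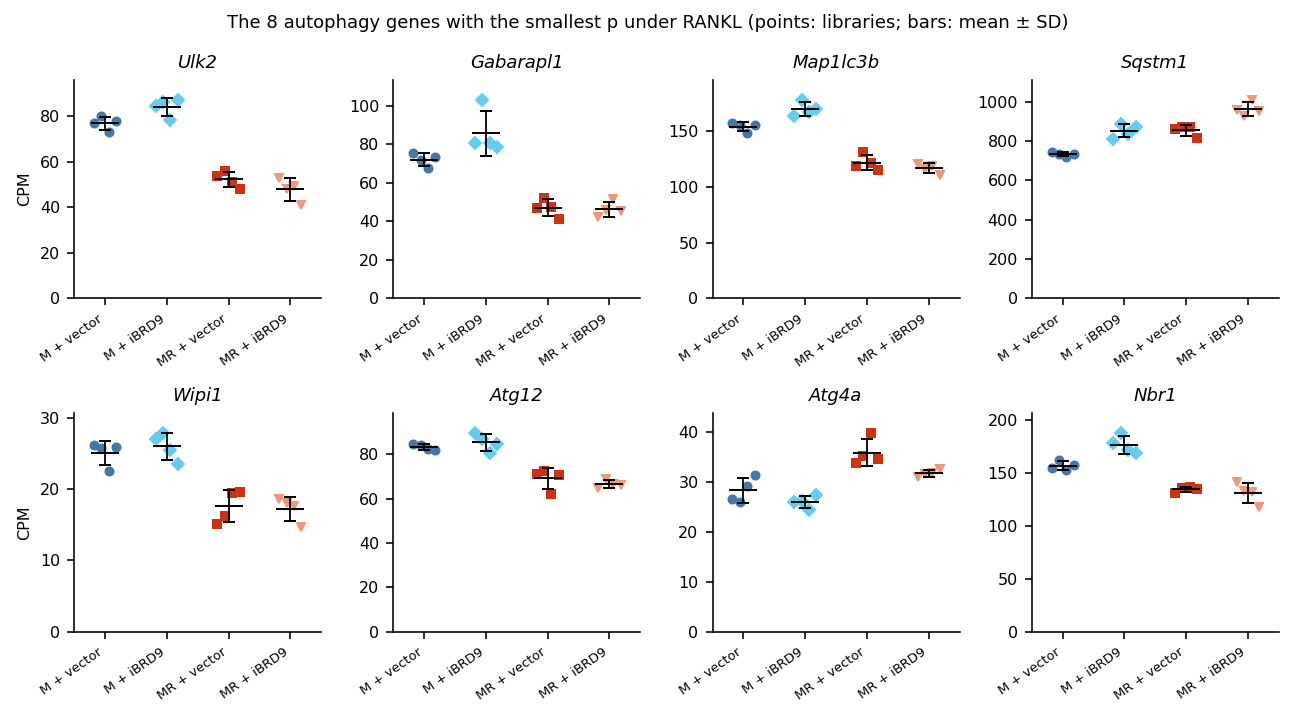
CPM (axis from 0) of the 8 called genes with the smallest p under RANKL, in all 4 groups, with points for libraries and bars for mean ± SD. In M + vector and MR + vector, Ulk2 averages 76.8 ± 2.91 and 52.2 ± 3.42 CPM and Gabarapl1 72 ± 3.28 and 47 ± 4.45, while Sqstm1 and Atg4a stand higher with RANKL.

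The call rule of the study was an unadjusted p below 0.05 with a change of at least 1.2-fold. The study applied it to DESeq, and here it was applied to the edgeR test. By that rule 2 of the 37 were higher under RANKL (Atg4a and Atg4d) and 6 lower (Gabarapl1, Ulk2, Wipi1, Map1lc3b, Map1lc3a and Atg12). Over all genes that rule called 13.4% higher and 15% lower.

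The comparison of M + iBRD9 with M + vector asks what BRD9 inhibition does in cells that had M-CSF alone. The inhibitor raised 7 of the 37 genes (18.9%), spread over 5 roles. These were the kinase Ulk1, the E1-like enzyme Atg7, the ATG8 genes Gabarap and Gabarapl1, the receptors Sqstm1 and Nbr1, and the factor Tfe3. With only these 2 groups in the fit, 4 were called, Tfe3, Gabarap and Gabarapl1 being lost, while 1.79% of all genes were called higher. Without M + vector replicate 4 or M + iBRD9 replicate 2 it was 4 as well, with 1.54% of all genes in either run. None of the 37 was called lower. Over all genes, 3.08% were called higher and 3.73% lower, and the median log2 change was 0.06 over the 37 and 0.0025 over all genes. By edgeR, 11 of the 37 had an unadjusted p below 0.05 and a higher value and 0 a lower one, against 10.1% and 10.3% of all genes. DESeq2 called 8 higher and 0 lower, against 3.51% and 5.86% of the 9737 genes to which it gave an adjusted p. By the 1.2-fold rule 1 was called higher, Ulk1, and 0 lower, where 3.33% and 2.78% of all genes were.

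M + iBRD9 replicate 4 was the library farthest from its group. Without it, Ulk1 was at 0.53 (adjusted p = 1.92e-05), Sqstm1 at 0.20 (0.000204), Nbr1 at 0.18 (0.0117) and Gabarapl1 at 0.29 (0.00881). Tfe3 was at 0.15 (0.022) and Atg7 at 0.15 (0.045). Gabarap alone of the 7 lost its call, at 0.11 (0.0572). In that run 3.95% of all genes were called higher and 5.53% lower.

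Ulk1 showed the strongest rise among the called genes. It read 53.8, 54.2, 43.5 and 40.0 CPM in M + vector and 68.2, 71.6, 68.2 and 55.2 in M + iBRD9. The lowest inhibitor library was just above the highest vector library, and the change was 0.46 ± 0.08 (adjusted p = 0.00059), or 1.38-fold. The call held without each library in turn (adjusted p up to 0.00647). Its share of the summed FPKM of Ulk1 and Ulk2 was 41.9% ± 3.44 in M + iBRD9, against 36.3% ± 3.24 in M + vector. Ulk2 read 84.4, 86, 78.3 and 87.2 CPM in M + iBRD9 and was not called, at 0.13 ± 0.06 (adjusted p = 0.22).

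Sqstm1 had the smallest p. It read 812, 887, 837 and 871 CPM in M + iBRD9, above all 4 values of M + vector given earlier, at 0.22 ± 0.04 (adjusted p = 0.00018). Nbr1 read 178, 188, 172 and 169 CPM in M + iBRD9 and also stood above all M + vector libraries, at 0.17 ± 0.05 (adjusted p = 0.024). The Sqstm1 call held without each library, and the Nbr1 call was lost without M + vector replicate 1, 3 or 4 or M + iBRD9 replicate 2 (adjusted p 0.0635 to 0.13). Optn was not called, at 0.06.

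Gabarap read 374, 368, 383 and 375 CPM in M + vector and 391, 413, 417 and 468 in M + iBRD9. The groups were apart, with replicate 4 highest, and the change was 0.17 ± 0.04 (adjusted p = 0.012). The call was lost without M + vector replicate 2 (adjusted p = 0.051) or M + iBRD9 replicate 4 (0.0572), and without the latter the change was 0.11. Gabarapl1 read 80.6, 103, 80.7 and 78.5 CPM in M + iBRD9, where replicate 2 stood well above the other 3. Its change was 0.25 ± 0.07 (adjusted p = 0.031), and without that library it was 0.15 with an adjusted p of 0.237. It was lost as well without M + vector replicate 2, 3 or 4 (0.0646 to 0.119). Map1lc3b read 163, 178, 167 and 169 CPM in M + iBRD9, above the M + vector libraries, and just missed the threshold, at 0.14 ± 0.05 (adjusted p = 0.057). It passed by DESeq2, with the replicate block, and without M + iBRD9 replicate 1 (adjusted p = 0.0422) or MR + vector replicate 2 (0.0469). Gabarapl2 was at -0.01 and Map1lc3a at 0.13.

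Atg7 read 88, 88.6, 89.6 and 86.5 CPM in M + vector and 94.8, 98.1, 101 and 112 in M + iBRD9. The vector libraries were tightly grouped and all lower, at 0.20 ± 0.05 (adjusted p = 0.009), a call that held without each library (adjusted p up to 0.045). It was the only one of the 10 conjugation genes and proteases to be called (10%, against 3.08% of all genes called higher). Atg5 read 48.3, 41.6, 42 and 53.4 CPM in M + iBRD9, at -0.09 ± 0.07 (adjusted p = 0.53), with values on both sides of the M + vector range. The other 8 had estimates between -0.12 (Atg4a) and 0.04 (Atg12).

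Tfe3 read 134, 133, 135 and 128 CPM in M + vector and 142, 150.2, 150.0 and 148 in M + iBRD9. The groups were apart, at 0.16 ± 0.04 (adjusted p = 0.016). This call did not hold without M + vector replicate 4 or M + iBRD9 replicate 2 or 3 (adjusted p 0.0581 to 0.0777). Tfeb read 38, 42.1, 45 and 39.5 CPM in M + iBRD9, overlapping with M + vector, and was not called, at 0.13 ± 0.07 (adjusted p = 0.31). No PI3-kinase gene was called, with 6 estimates from 0.0015 (Atg14) to 0.10 (Pik3c3). Becn1 read 48.4, 61.6, 57.8 and 47 CPM in M + iBRD9, at 0.09. No membrane gene was called either. Wdr45 had the highest estimate of the 37, 0.52 ± 0.26 (adjusted p = 0.26), at 2.38 to 8.26 CPM in the libraries of M + iBRD9 and with a wide error. Without M + iBRD9 replicate 4 it was 0.78 and called (adjusted p = 0.0159). Atg2a, at 0.20 ± 0.07 (adjusted p = 0.11), was called without that library (0.27, adjusted p = 0.00917) or M + vector replicate 1 (0.26, 0.0426), and also with no filter and with the replicate block.

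**Figure D4:**
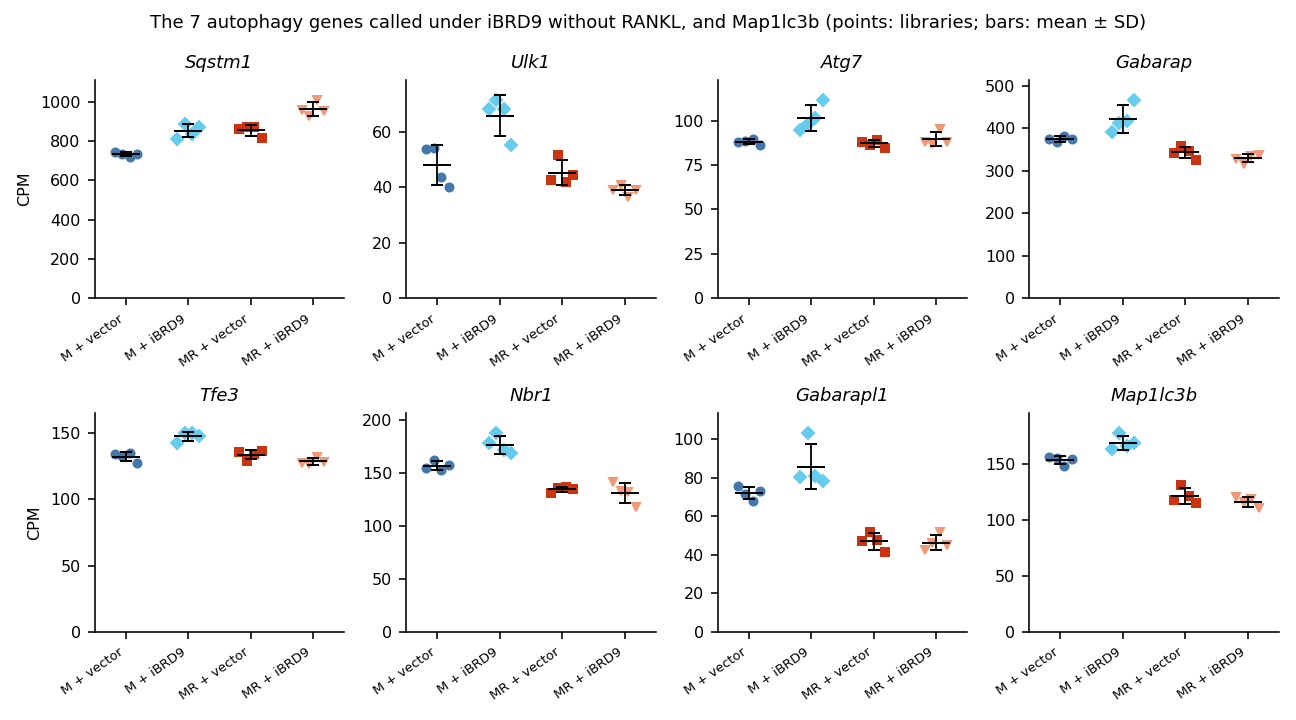
CPM (axis from 0) in all 4 groups for the 7 genes called under iBRD9 without RANKL and for Map1lc3b, with points for libraries and bars for mean ± SD. Ulk1 averages 47.9 ± 7.21, 65.8 ± 7.23, 45.2 ± 4.48 and 38.9 ± 1.87 CPM from left to right, and Sqstm1 is the one gene that is higher with iBRD9 in both pairs of groups by the test.

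The RANKL comparison and the comparison of iBRD9 without RANKL share the M + vector libraries, so their values are only set side by side. Gabarapl1 was at -0.62 and 0.25, Nbr1 at -0.22 and 0.17, Gabarap at -0.13 and 0.17, and Sqstm1 at 0.22 and 0.22. The macrophage marker sum, given above, was higher in M + iBRD9 and lower in MR + vector than in M + vector, and its part in these changes was not tested.

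The comparison of MR + iBRD9 with MR + vector asks for the effect of the inhibitor during RANKL treatment. Of the 37 genes, 1 was called, Sqstm1, which was higher (2.7%). None was called lower. Over all genes 0.718% were called higher and 2.05% lower, and the median log2 change was -0.05 over the 37 and -0.00042 over all genes. At an unadjusted p below 0.05, edgeR had 1 of the 37 higher and 3 lower, against 5.36% and 7.9% of all genes. DESeq2 called 1 higher and 0 lower, against 0.797% and 2.28% of its 12419 genes. The 1.2-fold rule called 0 of the 37 in either direction, with 1.83% of all genes higher and 2.1% lower.

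Sqstm1 read 858, 869, 869.7 and 815 CPM in MR + vector and 957, 928, 1010.0 and 953 in MR + iBRD9. All inhibitor libraries were higher, at 0.17 ± 0.04 (adjusted p = 0.0031), and the call held without each library (adjusted p up to 0.0306). Ulk1 read 42.7, 51.7, 41.9 and 44.5 CPM in MR + vector and 39.2, 41, 36.4 and 39.2 in MR + iBRD9, lower in every inhibitor library but not called, at -0.21 ± 0.09 (adjusted p = 0.24), with a 95% interval of -0.40 to -0.02. The other genes called without RANKL were not called here. Gabarap read 328, 317, 334 and 338 CPM in MR + iBRD9, at -0.06, and Tfe3 128, 127, 132 and 129, at -0.06.

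Nbr1 read 141, 133, 132 and 118 CPM in MR + iBRD9 and was at -0.04 ± 0.05 (adjusted p = 0.8). Gabarapl1 read 42.5, 45.9, 51.7 and 45.2, at -0.02 ± 0.08 (adjusted p = 0.96), a direction that turned with total counts as the scaling. Atg7 read 88.1, 86.6, 95.1 and 88.1, at 0.04 ± 0.05 (adjusted p = 0.81). All 3 overlapped with MR + vector. Map1lc3b read 120.4, 116, 119 and 111 CPM, Tfeb 36.3, 40.3, 40.6 and 39.9, Atg5 46.9, 46.9, 45.1 and 46.7 and Becn1 51.7, 51.5, 56.2 and 50.7, none of them called, at -0.06, -0.04, -0.12 and 0.10. Atg4a, higher under RANKL, was at -0.18 ± 0.07 (adjusted p = 0.23).

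The interaction is the effect of iBRD9 with RANKL minus that without RANKL, and tests whether the responses differ. It was called lower for 3 of the 37 genes (8.11%), Ulk1, Gabarap and Tfe3, and higher for 0. Over all genes, 1.08% were called lower and 1% higher. By edgeR at an unadjusted p below 0.05, 11 of the 37 were lower and 0 higher, against 7.22% and 6.57% of all genes. DESeq2 called 3 lower and 0 higher, against 1.73% and 2.3% of its 9141 genes. The 1.2-fold rule called 2 lower, Ulk1 and Gabarapl1, and 0 higher, with 3.24% and 3.42% of all genes. The median was -0.09 over the 37 and -0.0085 over all genes.

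The Ulk1 response differed by -0.67 ± 0.12 (adjusted p = 0.0029), from 0.46 without RANKL to -0.21 with it, and the call held without each library (adjusted p up to 0.0179). Gabarap differed by -0.23 ± 0.06 (adjusted p = 0.039) and Tfe3 by -0.21 ± 0.06 (adjusted p = 0.045). Both of these were close to the threshold. Without M + iBRD9 replicate 4 the differences were -0.74 for Ulk1 (adjusted p = 9.63e-05), -0.17 for Gabarap (0.0531) and -0.20 for Tfe3 (0.0376), and 2.72% of all genes were called higher and 1.92% lower. Gabarap and Tfe3 were each lost in 13 of 16 runs that left out a library, with adjusted p up to 0.124 and 0.112. Gabarap kept its call without M + iBRD9 replicate 1, MR + vector replicate 4 or MR + iBRD9 replicate 3, and Tfe3 without M + iBRD9 replicate 1 or 4 or MR + iBRD9 replicate 3. For Map1lc3b the difference was -0.20 ± 0.06 (adjusted p = 0.097), for Nbr1 -0.21 ± 0.07 (adjusted p = 0.099) and for Gabarapl1 -0.27 ± 0.11 (adjusted p = 0.21), so their responses with and without RANKL were not shown to differ. Without MR + iBRD9 replicate 1 the Nbr1 difference was called (adjusted p = 0.0484), and without M + iBRD9 replicate 4 that of Atg2a was (-0.32, 0.0431). For Sqstm1 it was -0.04 ± 0.05 (adjusted p = 0.77), with a 95% interval of -0.15 to 0.07, and for Atg7 -0.16 ± 0.07 (adjusted p = 0.27), with -0.31 to -0.01. For Tfeb it was -0.17, for Becn1 0.011 and for Atg5 -0.04, none called.

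**Figure D5:**
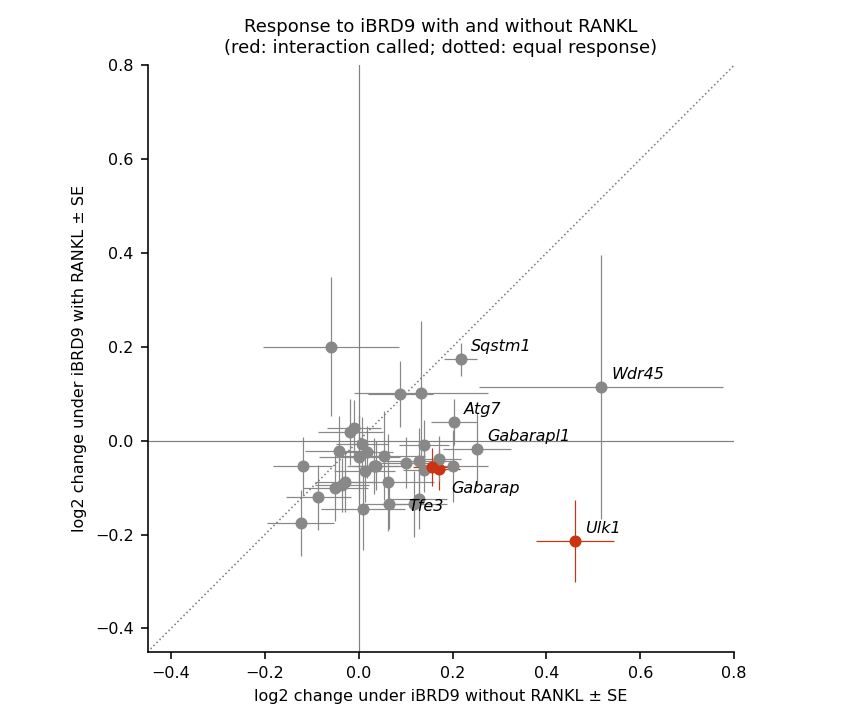
Log2 change ± SE under iBRD9 without RANKL (horizontal) and with RANKL (vertical) for the 37 genes, which use different libraries, with a dotted line where both are equal. Ulk1 lies far below the line at 0.46 and -0.21, and Sqstm1 lies close to it at 0.22 and 0.17.

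Averaged over both RANKL states, iBRD9 raised 2 of the 37 genes (5.41%) and lowered 0, where 2.41% of all genes were called higher and 3.41% lower. Sqstm1 was at 0.20 ± 0.03 (adjusted p = 2.2e-06), higher in all 8 inhibitor libraries than in every vector library of the same RANKL state, and at 0.19 (adjusted p = 7.32e-07) without M + iBRD9 replicate 4. Atg7 was at 0.12 ± 0.03 (adjusted p = 0.032), lost in 9 of 16 runs that left out a library (without M + vector replicate 1, 2 or 4, M + iBRD9 replicate 3 or 4, MR + vector replicate 1, 2 or 4 or MR + iBRD9 replicate 3, adjusted p up to 0.0937). Without M + iBRD9 replicate 4 it was at 0.09 (adjusted p = 0.068). The Atg7 change was 0.20 without RANKL and 0.04 with it, and the interaction, given above, was not called. At an unadjusted p below 0.05, 4 were higher and 2 lower by edgeR, against 9.19% and 10.2% of all genes. DESeq2 called 2 higher and 0 lower, against 2.38% and 4.43% of its 11525 genes. By the 1.2-fold rule 0 were called, against 1.97% of all genes higher and 1.67% lower. Atg4a was at -0.15 ± 0.05 (adjusted p = 0.074), and was called lower without M + vector replicate 2 (adjusted p = 0.048) or M + iBRD9 replicate 4 (0.0448). Without the latter Atg5 was called lower too (0.0441).

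Genes beside the core machinery were taken from 6 lists of regulators, other receptors and fusion factors, with 104 genes of which 103 were tested. Under RANKL, 46 were called lower (44.7%) and 10 higher (9.71%), with a median of -0.13, where 20.6% and 20.1% of all genes were. Those with the smallest p were Sesn1, a p53-induced sestrin that restrains mTORC1, at -1.11 ± 0.05 (adjusted p = 9.9e-19), and Tecpr1, a tethering factor of autophagosomes and lysosomes, at -0.86 ± 0.06 (adjusted p = 3.7e-14). Of those that rose, they were Phb2, a mitophagy receptor of the inner mitochondrial membrane, at 0.31 ± 0.05 (adjusted p = 5.2e-06), and Ywhaz, a 14-3-3 protein, at 0.22 ± 0.04 (adjusted p = 1.6e-05).

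iBRD9 without RANKL raised 7 of the 103 (6.8%) and lowered 2 (1.94%), where 3.08% and 3.73% of all genes were called. Lamtor1, the Ragulator subunit that anchors mTORC1 signalling to the lysosome, was at 0.48 ± 0.05 (adjusted p = 1.8e-08), and Calcoco1, a receptor for ER and Golgi autophagy, at 0.32 ± 0.06 (adjusted p = 0.00064). The lower genes were Bcl2, which binds Beclin 1, at -0.60 ± 0.11 (adjusted p = 0.00052), and the 14-3-3 gene Ywhag, at -0.12 ± 0.04 (adjusted p = 0.041). With RANKL, 2 of the 103 were called higher and 2 lower (1.94% each), where 0.718% and 2.05% of all genes were. iBRD9 raised Lamtor1, at 0.25 ± 0.05 (adjusted p = 0.0014), and Ywhah, at 0.14 ± 0.04 (adjusted p = 0.033). It lowered Sesn1, at -0.20 ± 0.05 (adjusted p = 0.02), and Sh3glb1, a binding partner of Uvrag, at -0.14 ± 0.04 (adjusted p = 0.026).

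The interaction was called for 6 of the 103, 1 higher (0.971%) and 5 lower (4.85%), where 1% and 1.08% of all genes were. The higher was Bcl2, at 0.62 ± 0.15 (adjusted p = 0.022). The lower with the smallest p were Plekhm1, an adaptor for fusion with the lysosome, at -0.36 ± 0.07 (adjusted p = 0.0078), and Calcoco1, at -0.39 ± 0.08 (adjusted p = 0.012), and the other 3 were Sesn1, Flcn and Trp53inp1. On average over RANKL state, Lamtor1, Lamtor4 and Mcoln1 were higher, Lamtor1 at 0.37 ± 0.03 (adjusted p = 1.7e-09) and Lamtor4, a second Ragulator subunit, at 0.28 ± 0.05 (adjusted p = 0.00068). Bcl2 was lower, at -0.28 ± 0.08 (adjusted p = 0.018). These were 2.91% and 0.971% of the 103, against 2.41% and 3.41% of all genes. Mcoln1 is the lysosomal calcium channel that activates TFEB.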

How the data were processed

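RNA-seq was analysed in 16 libraries of mouse bone marrow-derived monocytes, 4 in each of 4 groups taken from the labels. Per the labels, the submitters' processing notes name cutadapt, HISAT2, HTSeq and the build GRCm39, and the authors' read counts per gene come from HTSeq. The deposited read counts are not normalized. The deposited FPKM values equal the counts divided by gene length and column total (largest relative difference 7.7e-06), and the gene length in the deposited table has no other use here. No source used here states whether counting used strand, so reads of overlapping or antisense genes may be mixed, and 20 symbols stand on more than 1 row of the table.

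Low genes were removed with filterByExpr (10339 of them), and the other 11559 were tested with the two-sided edgeR quasi-likelihood test (version 4.0.16, R 4.3.3) on counts with TMM factors. A single model of 4 group means was fitted to the 16 libraries, leaving 12 residual degrees of freedom, and the biological coefficient of variation came to 5.86%. The 5 comparisons were RANKL in vector-treated cells, iBRD9 with and without RANKL, their difference and their average. P-values were adjusted by Benjamini-Hochberg over all tested genes in each comparison, called below 0.05, and every adjusted p in the text comes from this test unless DESeq2 is named. CPM values use TMM factors. Libraries of a group differed by more than counting error (chi-square per degree of freedom 2.81 to 11.3 over pairs, highest for M + iBRD9 replicate 4), so none was merged. The 37 genes, the 6 other gene lists and the tests were chosen with earlier results of these data known. The text gives every called gene of the 37, values in each library for genes called under iBRD9, for the 8 with the smallest p under RANKL and for 9 fixed genes (Ulk1, Becn1, Atg5, Atg7, Map1lc3b, Gabarapl1, Sqstm1, Tfeb and Tfe3), and of the other lists the 2 with the smallest p in each direction. Alternatives were RLE factors, total counts, no filter, DESeq2 1.42.0 and only the groups compared. Others were the call rule of the study (on the edgeR test), a replicate block and leaving out each library. Promoter windows are RefSeq sequences, matched by symbol, with CACGTG and TCACGTGA searched on both strands. Depth limits precision through counting error only, which intervals from the fit include.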

Additional observations from a re-analysis of the deposited data

Results flagged for a closer look

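A single library stood apart from the other 3 of its group (gap over range above Dixon's 95% value for 4 samples) in 9 of the 148 sets of 4 libraries formed by 37 genes and 4 groups, where chance gives about 1 in 20. In M + vector these were Atg4d in replicate 1 at 16.1 CPM, below the others, and Wipi1 in replicate 3 at 22.5 CPM, also below. In M + iBRD9 they were Wipi2 in replicate 2 at 76.1 CPM and Gabarapl1 in replicate 2 at 103 CPM, both above the others, and Uvrag in replicate 3 at 66 CPM, below. In MR + vector it was Tfeb in replicate 1 at 35.1 CPM, and in MR + iBRD9 Tfeb in replicate 1 at 36.3 CPM, Ambra1 in replicate 3 at 48.8 CPM and Atg5 in replicate 3 at 45.1 CPM, all below the others. The response to iBRD9 differed with RANKL state by the interaction test for Ulk1 at -0.67, Gabarap at -0.23 and Tfe3 at -0.21 on the log2 scale. The Ulk1 call held without each library, whereas Gabarap and Tfe3 each lost theirs in 13 of 16 such runs, and Tfe3 also with RLE factors, total counts or no filter.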

How the results depend on the processing

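Counts of called genes among the 37 moved with the call rule. By the study's rule they were 2 higher and 6 lower under RANKL, 0 higher under iBRD9 with RANKL, 1 higher under iBRD9 without RANKL, 2 lower in the interaction and 0 higher on average. Over all genes that rule called 13.4% higher and 15% lower under RANKL, and 1.83% higher under iBRD9 with RANKL. It called 3.33% higher under iBRD9 without RANKL, 3.24% lower in the interaction and 1.97% higher on average. With only the 2 groups compared in the fit, iBRD9 without RANKL gave 4 higher, without Tfe3, Gabarap and Gabarapl1 (1.79% of all genes, in place of 3.08%). Leaving out each library gave 4 to 8 higher for iBRD9 without RANKL (4 without M + vector replicate 4 or M + iBRD9 replicate 2), 1 to 3 lower for the interaction, 1 to 2 higher and 0 to 2 lower for the average. Over all genes these shares were 1.54% to 3.95%, 0.351% to 1.92%, 1.66% to 3.2% and 2.71% to 4.54%. Scaling by total counts lost the calls of Optn under RANKL and Tfe3 in the interaction, RLE factors and no filter each lost that of Tfe3, and DESeq2 lost none. Of the 31 called results of the 37 genes over the 5 comparisons, 0 turned direction in any refit, and of the 154 not called 51 did in at least 1. Among the 9 fixed genes, with total counts as the scaling, Atg7 under RANKL was at 0.0037 and Gabarapl1 under iBRD9 with RANKL at 4e-04. Leaving out a library, Gabarapl1 under iBRD9 with RANKL ranged from -0.0777 to 0.0331, Becn1 in the interaction from -0.0378 to 0.0917 and Atg5 in the interaction from -0.0766 to 0.0521. Same-numbered libraries correlated at -0.0448 to 0.14 in their deviations from group means, so the numbers were not taken to pair them, and a model with the replicate block gave 9 genes higher under iBRD9 without RANKL in place of 7 (Atg2a and Map1lc3b added, with 4.14% of all genes higher), added Atg14 under RANKL and lost no call among the 37. Changes here are small, so the p-value of a gene near the threshold depends on single libraries.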
